A study of Mus musculus with 2 samples.

Results

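The 7 mature miRNA names of the miR-34 and miR-449 family that were taken from the tables are both arms of miR-34a, miR-34b and miR-34c and the 5p arm of miR-449a. The rule that picks them uses names and no measured value. All 7 of the 1477 names counted in either library are accounted for here, and a name that a table did not list was set to 0. The libraries hold miRNA counts from mouse skin keratinocytes cultured in a low-calcium medium, which exogenously expressed Dsp-BirA, a fusion of the desmosomal protein desmoplakin to a biotin ligase, and which were biotin treated. RNA was recovered with streptavidin together with the biotin-labelled proteins. The 2 libraries, replicate 1 and replicate 2, belong to this 1 group. No library without the fusion, without biotin or of whole cells was analysed here, so a level describes what was recovered at the beads and not its enrichment there. The labels give neither the vector and promoter of the fusion nor whether the libraries came from separate cultures, so the spread between them may be technical.

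An miRNA is cut from a hairpin whose 5p and 3p arms can each be loaded into an Argonaute protein, and its seed, bases 2 to 8 from the 5′ end, governs which mRNAs it pairs with. The 5p arms of miR-34 and miR-449 share a seed and hold back the cell cycle, with Met, Bcl2 and Notch1 among the known targets. Transcription of the miR-34 genes is induced by p53, the tumour suppressor that responds to DNA damage, and in keratinocytes it is held down by p63, the p53 relative that maintains the basal layer of the epidermis. miR-449 is best known from multiciliated cells. Neither p53, p63 nor the RNAs paired to these miRNAs were analysed here.

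The mature sequences below show which arms share a seed and which do not, with the seed in capitals. RefSeq sequences of the GRCm38.p6 assembly matched 6 of the 7 names; mmu-miR-34c-5p is named only.

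mmu-miR-34a-5p: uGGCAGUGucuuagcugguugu
mmu-miR-34b-5p: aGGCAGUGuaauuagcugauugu
mmu-miR-449a-5p: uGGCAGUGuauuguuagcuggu
mmu-miR-34a-3p: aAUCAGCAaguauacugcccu
mmu-miR-34b-3p: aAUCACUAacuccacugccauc
mmu-miR-34c-3p: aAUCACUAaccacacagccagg

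The seed GGCAGUG was carried by 4 mature names of the RefSeq table, namely miR-34a-5p, miR-34b-5p, miR-449a-5p and miR-449c-5p. Read from the 5′ end without gaps, miR-34a-5p and miR-449a-5p were identical over their first 9 bases and at 15 of 22 positions. The 3p arms split by locus: miR-34b-3p and miR-34c-3p shared the seed AUCACUA, which no other name in the table had, were identical over their first 10 bases and matched at 17 of 22 positions. The seed of miR-34a-3p was found in that 1 name alone. How reads matching both of such similar names were assigned is not given in the sources used here. Without a sequence for miR-34c-5p, its likeness to miR-34b-5p was not measured. How reads matching both of these would bear on their levels, their ratio or the miR-34b arm share was therefore not analysed here.

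The hairpins come from 3 places in the mouse genome, given here in GRCm38.p6, the assembly that mm10 also denotes. Mir34a lies on the plus strand at chr4:150068454-150068555 and within no other gene of the RefSeq table. Mir34c (chr9:51103034-51103110) and Mir34b (chr9:51103562-51103645) lie 451 bases apart on the minus strand, within the spans of both Hoatz and Btg4. Mir449a (chr13:113037534-113037624) lies within the span of Cdc20b, with Mir449b and Mir449c beside it. The table gives no exons, so whether a hairpin is intronic was not analysed here.

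Levels are given as CPM, counts per 1000000 miRNA counts of a library. The totals were 3776893 in replicate 1 and 4122955 in replicate 2. Where a name has no reads, as many as 3 counts could have been missed, which is 0.794 CPM in replicate 1 and 0.728 CPM in replicate 2. These reads carry no stated molecular identifiers, and every interval and limit covers counting error alone. Names listed as keratinocyte or epithelial were abundant among the recovered miRNAs. Together miR-205-5p, miR-141-3p, miR-200c-3p and miR-203-3p took 8.11% and 8.17% of the counts of replicates 1 and 2. Of these, miR-141-3p alone had 136963 and 158653 counts. The lists for other cells were lower, with 23 and 49 counts for blood, 131 and 84 for striated muscle, 430 and 419 for neural tissue, 17 and 35 for liver, and 59 and 386 for fibroblasts or smooth muscle. Nearly all of the neural counts came from miR-9-5p (418 and 419), which lay above miR-34b-5p (366 and 115) in both libraries. The list for fibroblasts or smooth muscle differed most between the libraries through miR-214-3p alone, with 26 and 364 counts. Its other names, miR-143-3p (10 and 0), miR-145a-5p (23 and 16) and miR-199a-5p (0 and 6), were low in both. In the exact binomial test between the libraries described below, miR-214-3p passed with a log2 ratio of 3.68 (adjusted p = 1.73e-69). It also passed that exact test with counts scaled down for the spread between the libraries (adjusted p = 0.00747). Whether cells marked by this list bear on the other results was not tested.

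The family was a minor part of the recovered miRNAs, and miR-34a-5p made up most of it. The 7 names took 0.174% of the counts of replicate 1, with a Wilson 95% interval of 0.170% to 0.1785%. In replicate 2 they took 0.1447% (0.141% to 0.148%), which gives 0.1595% ± 0.0209 (SD, n = 2). Within the family, miR-34a-5p held 68.8% of the counts in replicate 1 and 76.9% in replicate 2. The 5p names together held 6293 and 5669 counts, and the 3p names 289 and 297. Summed over names with the same seed, with mmu-miR-34c-5p counted in the family, the seed GGCAGUG ranked 42 in replicate 1 and 48 in replicate 2 among 1051 seeds. That ranking covers the 1231 names (83.3%) with a sequence, which held 89.04% of the counts.

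Among the 5p arms, which carry the shared seed, the order was the same in both libraries. mmu-miR-34a-5p, the member most often described as the p53 target, had 4530 counts (1199 CPM) in replicate 1 and 4589 (1113 CPM) in replicate 2, or 1156 ± 61.1 CPM (SD, n = 2), and ranked 95 and 93 among all names. mmu-miR-34c-5p, from the chromosome 9 pair, had 1397 counts (369.9 CPM) and 964 counts (234 CPM), or 302 ± 96.2 CPM. mmu-miR-34b-5p, from the same pair, had 366 counts (96.9 CPM) and 115 counts (27.9 CPM), or 62.4 ± 48.8 CPM. The ranges of these 3 names did not overlap. miR-34a-5p had 3.24 times the counts of miR-34c-5p in replicate 1 and 4.76 times in replicate 2 (4.002 ± 1.07, SD, n = 2), and miR-34c-5p had 3.82 and 8.38 times those of miR-34b-5p. A sign-flip test, exact and two-sided, has 0.5 as its smallest p on 2 libraries, so these gaps are set against the SD alone.

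mmu-miR-449a-5p, the multiciliated-cell relative with the same seed, was at the limit of detection. It had 0 counts in replicate 1 and 1 count (0.2425 CPM) in replicate 2, both below the 3-count limit. The other guide names at its locus, miR-449b and miR-449c-5p, had 0 counts in both libraries. The opposite arms were seen in 1 library each: miR-449a-3p had 34 counts in replicate 1 and 0 in replicate 2, and miR-449c-3p had 0 and 33. Such a split also occurred elsewhere: 57 of the 1477 names reached 33 counts or more in one library while the other had none. Of the 400 names averaging 10 to 30 counts, as these 3p arms did, 261 were seen in both libraries. Among 5 names taken as markers of multiciliated cells (miR-449a-5p, miR-449b, miR-449c-5p, miR-34b-5p and miR-34c-5p), the miR-34 names were found in both libraries and the miR-449 names in neither beyond 1 count.

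The 3p arms all lay below miR-34a-5p and miR-34c-5p in both libraries. mmu-miR-34a-3p had 131 counts (34.7 CPM) in replicate 1 and 128 (31.1 CPM) in replicate 2, or 32.9 ± 2.57 CPM. mmu-miR-34b-3p had 108 counts (28.6 CPM) and 147 (35.7 CPM), or 32.1 ± 4.99 CPM. These overlapped, with a ratio of 1.04 ± 0.242 (SD, n = 2), and both lay within the range of miR-34b-5p, so the order of these 3 names was not resolved. mmu-miR-34c-3p had 50 counts (13.2 CPM) and 22 counts (5.34 CPM), below both other 3p arms in each library and above miR-449a-5p.

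**Figure D1:**
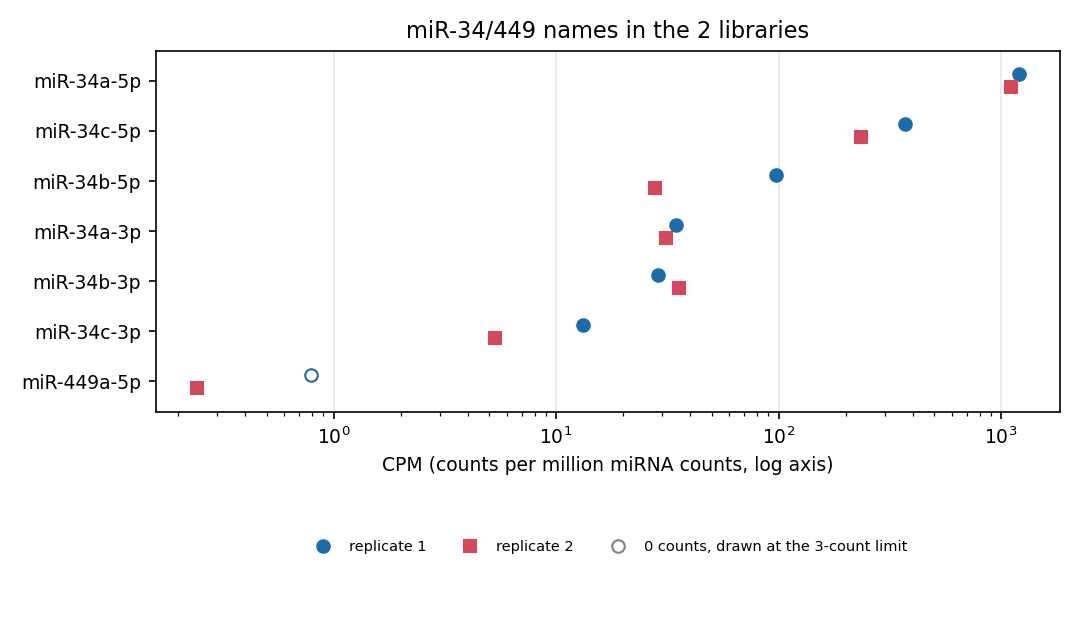
Level of the 7 family names in each library, in CPM on a log axis; each symbol is 1 library and an open symbol stands for 0 counts, drawn at the 3-count limit. miR-34a-5p lies near 1156 CPM, the 5p arms of miR-34a, miR-34c and miR-34b do not overlap, and miR-34b-5p spans the levels of miR-34a-3p and miR-34b-3p.

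The libraries were next compared with each other, name by name, to see how firmly each level is known. An exact two-sided binomial test was run on the 1002 names that averaged 10 counts or more, taking the ratio of the library totals as the null, with Benjamini-Hochberg adjustment over all of them. It compares these libraries, not conditions. Of the 7 members, 6 were tested and 4 passed an adjusted p of 0.05, all lower in replicate 2. Over all names 70.6% passed, with 34.3% lower and 36.2% higher in replicate 2. With both directions pooled, the members' 4 of 6 is near that background. By direction, 4 were lower and 0 higher. That all 4 lay on 1 side was not tested. All but miR-34a-5p come from the chromosome 9 pair, so the 4 are not independent. The median log2 ratio of replicate 2 over replicate 1 was -0.41 over the 6 members and -0.0048 over all names tested.

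Among the members, miR-34b-5p had the widest gap, 3.47-fold lower in replicate 2, with a log2 ratio of -1.80 (exact 95% interval -2.11 to -1.49; adjusted p = 4.68e-35, exact binomial test). For miR-34c-5p the log2 ratio was -0.66 (-0.78 to -0.54; adjusted p = 5.78e-27, exact binomial test), and for miR-34c-3p it was -1.31 (-2.11 to -0.56; adjusted p = 6.18e-04, same exact test). miR-34a-5p passed on its depth with a small log2 ratio of -0.11 (-0.17 to -0.048; adjusted p = 6.79e-04, same exact test). miR-34a-3p, at -0.16 (-0.52 to 0.20; adjusted p = 0.438, exact test), and miR-34b-3p, at 0.32 (-0.050 to 0.69; adjusted p = 0.119, exact test), did not pass. Summed by locus, the names of Mir34a were 1.08-fold and those of Mir34b and Mir34c 1.68-fold lower in replicate 2; the difference between the loci was not tested.

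Against other names of like abundance, 2 members stood outside 1 SD. The SD of the log2 ratio, over names with counts in both libraries, was 0.33 from 1000 to 10000 mean counts, where miR-34c-5p had -0.66 and miR-34a-5p -0.11. It was 1.04 from 100 to 300 counts, where miR-34b-5p had -1.80 and the 3p arms of miR-34a and miR-34b lay inside, and 1.71 from 30 to 100 counts, where miR-34c-3p had -1.31. Such a distance was not rare: 19% of the names from 1000 to 10000 counts and 19.6% of those from 100 to 300 lay outside 1 SD. An alternative scaled all counts down by 20.7, the average ratio of variance to mean that these libraries show over names with 10 to 300 mean counts, to allow for spread beyond counting error. None of the 6 members then passed, against 1.6% of all names. The exact test gave an adjusted p of 0.367 for miR-34b-5p and 0.497 for miR-34c-5p, and 2 members had an unadjusted p under 0.05. This divisor, used below as "divided counts", comes from the libraries compared, so the drop is partly built in, and miR-34a-5p and miR-34c-5p have more counts than the names it was taken from.

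**Figure D2:**
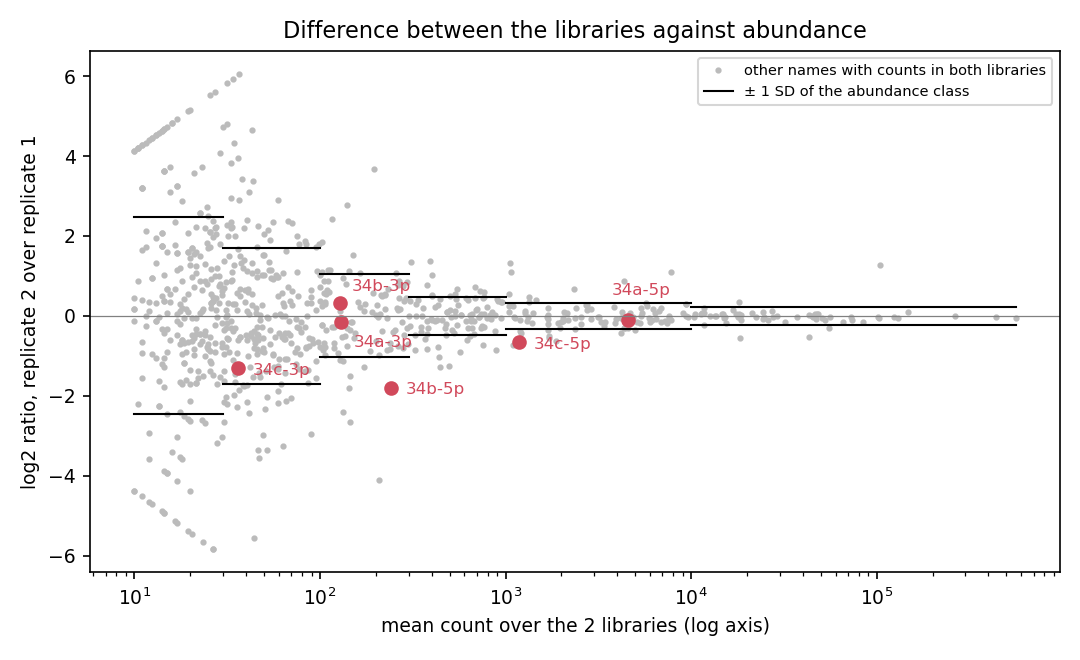
Log2 ratio of replicate 2 over replicate 1 against the mean count (log axis) for names with at least 10 mean counts and counts in both libraries; red points are family members and black lines mark 1 SD on either side of 0 within an abundance class. miR-34b-5p (-1.80) and miR-34c-5p (-0.66) lie below their lines of -1.04 and -0.33, and the other members lie between theirs.

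Arm use separated miR-34b from its relatives. Both arms were named, with at least 100 counts in each library, for 164 hairpins, among them those of miR-34a, miR-34b and miR-34c. In miR-34a the 5p arm held 97.2% of the reads of replicate 1, with a Wilson 95% interval of 96.7% to 97.6%, and 97.3% of those of replicate 2 (96.8% to 97.7%). In miR-34c it held 96.5% (95.5% to 97.4%) and 97.8% (96.6% to 98.5%). Both passed the exact binomial test for a dominant 5p arm in each library, as did 58.5% of all 164 hairpins, whose median 5p share was 77.2%. In miR-34b the 5p arm held 77.2% in replicate 1 (73.2% to 80.8%) but 43.9% in replicate 2 (38.0% to 49.95%), so that the arm with more reads changed. The excess of the 5p arm passed in replicate 1 (adjusted p = 9.61e-34, exact binomial test), while the excess of the 3p arm in replicate 2 did not (adjusted p = 0.0566, exact binomial test).

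The hairpins of miR-34a and miR-34b are shown with both mature arms in capitals, since the shares above set these arms against each other.

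Mir34a: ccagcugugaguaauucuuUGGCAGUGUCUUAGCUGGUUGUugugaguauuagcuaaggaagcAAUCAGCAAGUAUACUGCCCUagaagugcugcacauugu
Mir34b: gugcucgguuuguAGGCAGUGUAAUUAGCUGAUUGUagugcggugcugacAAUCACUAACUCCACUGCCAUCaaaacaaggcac

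In miR-34b the 5p arm went from 96.9 CPM in replicate 1 to 27.9 CPM in replicate 2, while the 3p arm had 28.6 and 35.7 CPM. The 5p share was 33.3 percentage points lower in replicate 2, and a Fisher's exact test, chosen after these values were seen, gave an adjusted p of 4.42e-18 over the 164 hairpins. The same exact test gave an adjusted p of 0.826 for miR-34a and 0.120 for miR-34c, and 68.3% of all hairpins passed it. The change ranked 6 among the 164 by size, and miR-34b was 1 of 7 hairpins whose arm with more reads changed. Hairpins with so few reads often moved: among the 36 with 200 to 1000 counts over both libraries the median difference was 13.2 points, and 5 of them, miR-34b included, had one at least as large as its own. On divided counts the change in miR-34b no longer passed (adjusted p = 0.941, Fisher's exact test), and 0.61% of the hairpins did.

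**Figure D3:**
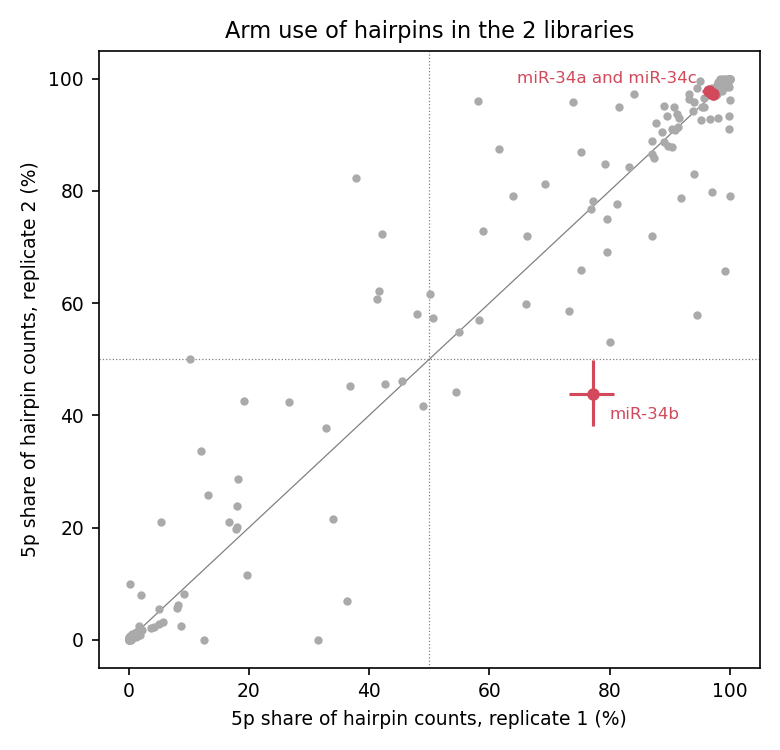
Share of a hairpin's counts on its 5p arm in replicate 1 and replicate 2, in percent, for 164 hairpins (grey) with miR-34a, miR-34b and miR-34c in red; bars are Wilson 95% intervals, the solid line marks equal shares and dotted lines mark 50%. miR-34a and miR-34c lie near 97% in both, and miR-34b lies at 77.2% and 43.9%.

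Other miRNAs tied to p53 were recovered at very different levels. The list holds 9 names: miR-192-5p, miR-194-5p, miR-215-5p, miR-107-3p and miR-605-5p, described as induced by p53, and miR-15a-5p, miR-16-5p, miR-143-3p and miR-145a-5p, from hairpins whose transcription or processing p53 has been reported to promote. Of these, 6 were found in both libraries, miR-143-3p in replicate 1 alone with 10 counts, and miR-215-5p and miR-605-5p in neither. In the comparison of the libraries 6 were tested, of which 1 was higher (miR-107-3p), 1 lower (miR-16-5p) and 4 did not pass. Over all names 70.6% passed, with 36.2% higher and 34.3% lower. On divided counts only miR-107-3p of this list passed (adjusted p = 7.32e-21, exact binomial test), against 1.6% of all names. miR-16-5p, a broadly expressed miRNA, took nearly all of the list with 111712 ± 1004 CPM (SD, n = 2), 96.7 ± 4.24 times miR-34a-5p.

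miR-15a-5p, the neighbour of miR-16 in a cluster that restrains the cell cycle, lay above miR-34a-5p in both libraries with 1922 and 1932 CPM (1927 ± 7.18). miR-107-3p had 1230 CPM in replicate 1 and 2643 CPM in replicate 2, a log2 ratio of 1.10, while its near-identical relative miR-103-3p, added after its values were seen, had -0.56; how reads matching both were assigned is not given in the sources used here. miR-194-5p and miR-192-5p, which share a cluster and are best known from gut and kidney, were lower than miR-34a-5p and similar in both libraries. miR-194-5p had 161.8 and 163.5 CPM (163 ± 1.20), and miR-34a-5p had 7.11 ± 0.428 times its counts. miR-192-5p had 99.3 and 91.4 CPM (95.4 ± 5.55), and miR-34a-5p had 12.1 ± 0.0653 times its counts. Both lay below miR-34c-5p. miR-34b-5p lay slightly below miR-192-5p in replicate 1 (96.9 against 99.3 CPM) and further below it in replicate 2 (27.9 against 91.4 CPM). miR-145a-5p, mainly a smooth muscle and fibroblast miRNA, had 23 and 16 counts.

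The miRNAs that act on p53 or p63 themselves were more abundant than miR-34a-5p, apart from 1. miR-203-3p, which represses p63 as keratinocytes leave the basal layer, had 4347 and 4480 CPM, 3.82 ± 0.283 times miR-34a-5p (SD, n = 2). miR-125b-5p, which targets the p53 mRNA, had 1833 and 1646 CPM, above miR-34a-5p in both libraries. miR-504-5p, reported to target the same mRNA, had 0 counts in both. miR-205-5p, linked to p63 in the basal epidermis, had 33640 and 32346 CPM, 28.6 ± 0.716 times miR-34a-5p. The ranges of these 3 names and of miR-34a-5p did not overlap. Between the libraries miR-203-3p was higher in replicate 2 (log2 ratio 0.044) and miR-125b-5p (-0.16) and miR-205-5p (-0.057) were lower. Each passed an adjusted p of 0.05 in the exact binomial test, as did 70.6% of all names. On divided counts none of them passed, against 1.6% of all names.

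**Figure D4:**
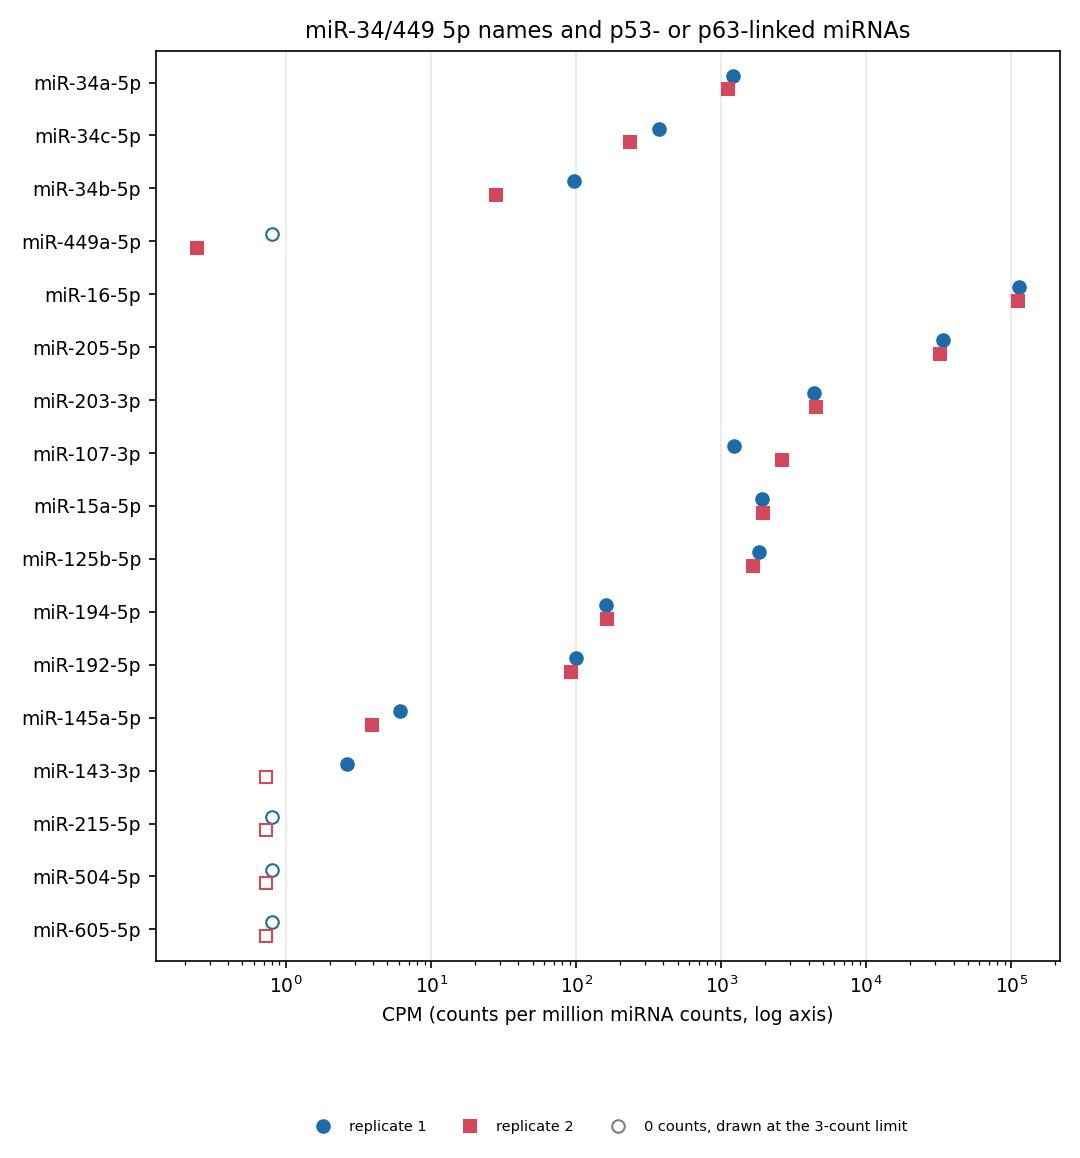
Level in CPM (log axis) of the 5p names of the family and of the miRNAs tied to p53 or p63, 1 symbol per library, with open symbols for 0 counts drawn at the 3-count limit. miR-34a-5p lies near 1156 CPM, below miR-205-5p, miR-203-3p and miR-15a-5p in both libraries and above miR-194-5p and miR-192-5p.

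The names closest in level to the leading members were found by the Euclidean distance of log2(CPM + 1) over the 2 libraries, which measures likeness in level alone. Nearest to miR-34a-5p were miR-467d-3p (1221 and 1140 CPM, distance 0.0432), miR-669a-5p (1209 and 1164 CPM, 0.0651) and miR-423-3p (1164 and 1216 CPM, 0.135). Nearest to miR-34c-5p were miR-708-5p (347 and 211 CPM, 0.171), miR-181a-5p (354 and 263 CPM, 0.179) and miR-126a-3p (346 and 265 CPM, 0.204).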

How the data were processed

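The authors deposited 1 table of raw counts per library, listing mature miRNA names with whole-number values of at least 1. Per the submitters' processing notes, cutadapt, Novoalign and the build mm10 were used. The miRNA reference and the treatment of PCR copies and multiply matching reads are not given in the sources used here. Depth was 3776893 and 4122955 miRNA counts. Names outside the miRNA nomenclature (0.00265% and 2.18e-04% of counts) were left out.

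CPM used the library totals. Shares carry Wilson intervals. Exact binomial tests compared the libraries (1002 names) and the arms (164 hairpins), and Fisher's exact test, added after the values were seen, compared arm shares between libraries, all with Benjamini-Hochberg adjustment at 0.05. The first 2 were tested on simulated data with counting error alone. Those data lack the wider spread of these libraries, so they cannot give the rate of false calls here. edgeR 4.0.16 (TMM) and DESeq2 1.42.0 gave alternative scalings in R 4.3.3. Other steps used Python 3.11.15, numpy 2.4.6, pandas 2.3.3, scipy 1.17.1 and matplotlib 3.10.9. Alternatives covered scaling, totals, count minimums, thresholds, pseudocounts and leaving out a library.

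Every member, the lists of p53- and p63-linked and cell type miRNAs, and the 3 names nearest to miR-34a-5p and miR-34c-5p were named. Members and lists were chosen with earlier results of these data known.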

Additional observations from a re-analysis of the deposited data

How the results depend on the processing

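Under TMM and DESeq2 size factors every member level, log2 ratio and call kept its direction and its side of the threshold, and the family share was 0.1595% and 0.159%. Leaving miR-31-5p, the most abundant name, out of the totals gave a share of 0.186%, which follows from the smaller totals. Leaving out names numbered 2000 and above gave 0.176%. With these totals miR-34a-5p had 1348 and 1276 CPM, each further from 1156 CPM than its SD of 61.1. The level of miR-34a-3p also moved by more than its SD in both settings, and that of miR-34b-3p in the first. Of the 6 tested members, 2 passed when a 2-fold difference was required besides and 0 on divided counts (2 at an unadjusted p under 0.05 in the exact binomial test), where the 4 that had passed kept their direction. Over all names 707 passed, against 254 among names averaging 100 counts or more, a smaller set, 441 with the 2-fold difference and 16 on divided counts. A dominant 5p arm in both libraries was found for 1 of the miR-34 hairpins with at least 1000 counts, since miR-34b and miR-34c fell below that minimum. The change in the miR-34b 5p share was 32.1 points on divided counts and no longer passed. Leaving out each library gave a ratio of miR-34a-5p to miR-34c-5p of 3.24 to 4.76 and a family share of 0.1447% to 0.174%. The same 6 nearest names were found with pseudocounts of 0.1 and 10 CPM. Below 300 mean counts the SD of the log2 ratio was above 1, which limits what can be said of miR-34b and of the 3p arms. No paired analysis was possible because both libraries belong to a single group.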
